A study of Mus musculus with 6 samples.

Results

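The genes described here are 33 genes of the pancreatic acinar cell, the cell that makes digestive enzymes. They were chosen by name, though with earlier results of these data known, out of 55401 genes counted in RNA from mouse pancreatic islets. All 33 were found in the count table. There were 6 libraries, 3 controls carrying floxed Pdgfra alleles without Pdx1-Cre and 3 labelled KO carrying the same alleles with Pdx1-Cre. All came from male C57BL/6 mice aged about 20 weeks, and the comparison asks what changes when the platelet-derived growth factor receptor alpha is removed from the Pdx1 lineage. Cre here is driven by the promoter of Pdx1, which is active in the embryonic progenitors of acinar and duct cells as well as of beta cells. A Cre-only group was not analysed here, so effects of Cre and of Pdgfra loss cannot be told apart. The column names of the 3 KO libraries, and of 0 controls, carry an unexplained suffix, so whatever it stands for cannot be told apart from genotype. Mice are numbered by title within each group, but separate animals are not named as such, and a p-value here reflects the spread among these libraries, which may be technical. The labels call the tissue islet and the cell type beta cell, and no sort is named.

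Acinar cells surround the islets and store digestive enzymes in zymogen granules, which they release into the pancreatic duct. The proteases are stored as inactive precursors. The precursors become active in the gut, where trypsin activates the other proteases. Transcription of these genes depends on the PTF1 complex, in which PTF1A and RBPJL act together with a common E protein, and on the factors MIST1 (encoded by Bhlha15) and NR5A2. Islets are separated from acinar tissue during isolation, and acinar cells that stay attached bring along transcripts that are among the most abundant of the body.

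The PTF1 complex is known to bind an E-box next to a TC box. The promoters shown are those of the 4 abundant enzyme genes (all among the 14 of the 33 with the most counts in every library) whose window held both CACCTG and TTTCCC on either strand, since they let the factors and the enzymes described here be read together. Each runs 5′ to 3′ on the gene's strand from 250 bases before to 50 after the RefSeq start site (GRCm38.p6), and capitals mark the matches to these 2 motifs or to their reverse complements CAGGTG and GGGAAA.
Cela1, chr15:100687871-100688170, minus strand: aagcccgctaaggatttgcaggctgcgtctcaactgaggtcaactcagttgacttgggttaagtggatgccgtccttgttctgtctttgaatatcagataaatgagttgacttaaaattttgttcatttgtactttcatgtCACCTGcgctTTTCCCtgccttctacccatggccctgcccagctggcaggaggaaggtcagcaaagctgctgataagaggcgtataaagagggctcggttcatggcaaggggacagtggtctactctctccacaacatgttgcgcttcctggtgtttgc
Cela2a, chr4:141825956-141826255, minus strand: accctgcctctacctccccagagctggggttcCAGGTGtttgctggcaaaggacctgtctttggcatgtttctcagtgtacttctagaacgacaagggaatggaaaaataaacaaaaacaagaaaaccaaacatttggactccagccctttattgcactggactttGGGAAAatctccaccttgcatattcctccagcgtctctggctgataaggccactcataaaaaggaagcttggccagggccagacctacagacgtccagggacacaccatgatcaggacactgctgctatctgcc
Cel, chr2:28563354-28563653, minus strand: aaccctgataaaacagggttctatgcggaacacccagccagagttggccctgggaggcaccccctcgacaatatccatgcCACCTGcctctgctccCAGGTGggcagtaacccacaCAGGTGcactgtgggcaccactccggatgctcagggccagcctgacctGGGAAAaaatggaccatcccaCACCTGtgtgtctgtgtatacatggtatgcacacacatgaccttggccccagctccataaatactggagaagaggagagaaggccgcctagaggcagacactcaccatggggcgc
Prss2, chr6:41521526-41521825, plus strand: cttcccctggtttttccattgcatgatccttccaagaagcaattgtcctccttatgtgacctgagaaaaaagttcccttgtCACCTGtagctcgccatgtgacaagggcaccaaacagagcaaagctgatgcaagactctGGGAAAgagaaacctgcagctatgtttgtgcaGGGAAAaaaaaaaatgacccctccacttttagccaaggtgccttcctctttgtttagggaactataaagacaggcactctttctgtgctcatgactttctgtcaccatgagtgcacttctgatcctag
In Cela1, which encodes elastase 1, the matches began at -109 and -99 from the start site, close to each other. In Cela2a, the gene of elastase 2A, they began at -218 and -84. Cel, the gene of the bile-salt-activated lipase, held CACCTG at -170, -154, -134 and -65 and TTTCCC at -86. Prss2, a trypsinogen gene, held CACCTG at -169 and TTTCCC at -110 and -78. The 2 motifs thus lay farther apart in Cela2a, Cel and Prss2 than in Cela1, and a window that holds both need not have them next to each other.

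Windows were found for 28 of the 33 genes, 30 windows in all. CACCTG was present in 17 of the 30 (56.7%) and in 20.2% of all 32851 RefSeq windows of this length. TTTCCC was present in 11 (36.7%) against 25.2% of all windows, and both motifs in 8 (26.7%) against 4.86%. The TATA box motif TATAAA was in 11 (36.7%) against 13.6%. AAGGTCA, a site of the NR5A2 type, was in 4 (13.3%) against 4.72%, and CAGCTG, the E-box form preferred by MIST1, was in 6 (20%) against 16.3%. Both strands were searched, and CACCTG and CAGCTG are different forms of the same E-box. Prss1, Prss2, Prss3 and Try4 are related copies, as are Cela3a and Cela3b, and all of these held CACCTG. The 30 windows are therefore not independent. These are matches of letters and were not tested as binding sites.

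The acinar genes outweighed insulin in every library. Together they took 44.89%, 34.46% and 25.19% of all counts in controls 1, 2 and 3, and 34.85%, 30.86% and 19.18% in KO 1, 2 and 3. Ins1 and Ins2, the insulin genes, took between 7.04% and 13.34% in the same libraries. There were thus 6.38, 3.33 and 1.89 acinar counts for each insulin count in the controls and 3.68, 2.63 and 1.81 in KO. The lowest library of the 6 was KO 3 and the highest control 1, and controls 2 and 3 lay among the KO values. The controls had a mean of 34.9 ± 9.86% (SD, n = 3) and the KO libraries one of 28.3 ± 8.15% (SD, n = 3). This difference was smaller than the SD of either group (permutation test, exact and two-sided, p = 0.5, where 0.1 is the lowest p that can be reached). Without ribosomal RNA and mitochondrial genes in the total, the shares were 47.45%, 36.09% and 26.72% in controls and 37.32%, 35.64% and 23.81% in KO, in the same order. The 95% Wilson interval of a library's share reached at most 0.0251 percentage points to either side and covers counting error only. In bulk RNA, fewer acinar cells and less RNA per acinar cell cannot be told apart.

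**Figure D1:**
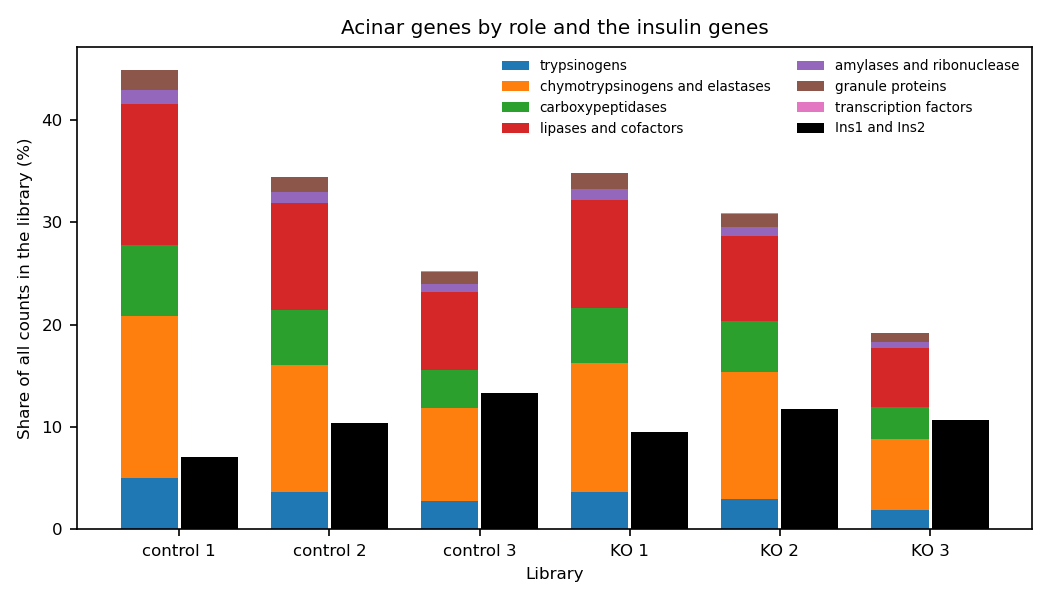
Share of all counts in each library, in percent, taken by the acinar genes stacked by role (left bar) and by Ins1 and Ins2 together (black bar). The stacked bars run from 19.18% in KO 3 to 44.89% in control 1 and exceed the insulin bar in every library, and the transcription factors, at most 0.0170%, are too thin to see.

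Library totals ran from 15026094 to 25299689 counts. Pdgfra had 42, 88 and 116 counts in controls and 93, 25 and 125 in KO (log2 fold change -0.26, SE 0.34, edgeR adjusted p = 0.869), and since counts cover all exons and the floxed ones are not named, this is no check of the deletion. Other marker lists, as summed CPM (counts scaled to a common library size with TMM factors), had 0 of their tested genes called in the fit over all genes. Beta-cell markers (9) summed to 96097 to 125356 CPM in controls and 104166 to 147765 in KO. Fibroblast and stellate markers (6) summed to 141 to 281 and 43.1 to 219, with the lowest value in KO 2, and endothelial markers (5) to 345 to 415 and 215 to 433, again lowest in KO 2. Alpha (5), delta (3) and PP (2) markers ranged from 13636 to 18157, 837 to 1158 and 577 to 819 CPM in controls and from 15749 to 16549, 886 to 1108 and 633 to 710 in KO. Ins1 and Ins2 made up most of the beta-cell sum, Gcg most of the alpha sum and Sst most of the delta sum. Duct markers (9) summed to 727 to 1388 and 605 to 1043, macrophage markers (5) to 68.4 to 75.5 and 67.9 to 76.0, erythroid markers (4) to 17.1 to 28.9 and 18.5 to 21.8, and lymphocyte and plasma cell markers (5) to 1.76 to 5.10 and 4.42 to 7.49. No marker was at 0 in all libraries. Ribosomal RNA loci took 3.32% to 4.51% of counts in controls and 5.36%, 12.64% and 18.47% in KO 1, 2 and 3.

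The 33 genes spanned a wide range of levels. Per kilobase of exon, Ctrb1, a chymotrypsinogen gene, had the highest mean level at 42487 CPM per kilobase, ahead of Pnlip (22041), the gene of pancreatic triglyceride lipase, and Prss2 (21706). From control 1 down to KO 3 the level was 78831 to 23894 CPM per kilobase for Ctrb1, 38491 to 11636 for Pnlip and 35904 to 12430 for Prss2. Within libraries Ctrb1 was above Pnlip in all 6, by 1.73-fold to 2.05-fold, while Pnlip was above Prss2 in 4 of 6. Of the 32 pairs of neighbours in this order, 18 had the same order in all 6 libraries and 14 did not. The 8 genes with the most counts held 73.1% of all acinar counts. The transcription factors lay far lower, with means of 22.8 CPM per kilobase for Bhlha15, 8.54 for Ptf1a, 3.59 for Rbpjl and 2.44 for Nr5a2. At the bottom stood Prss1 (2.27), a trypsinogen gene, and Cela3a (0.915), an elastase gene, which had under 100 counts in every library.

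**Figure D2:**
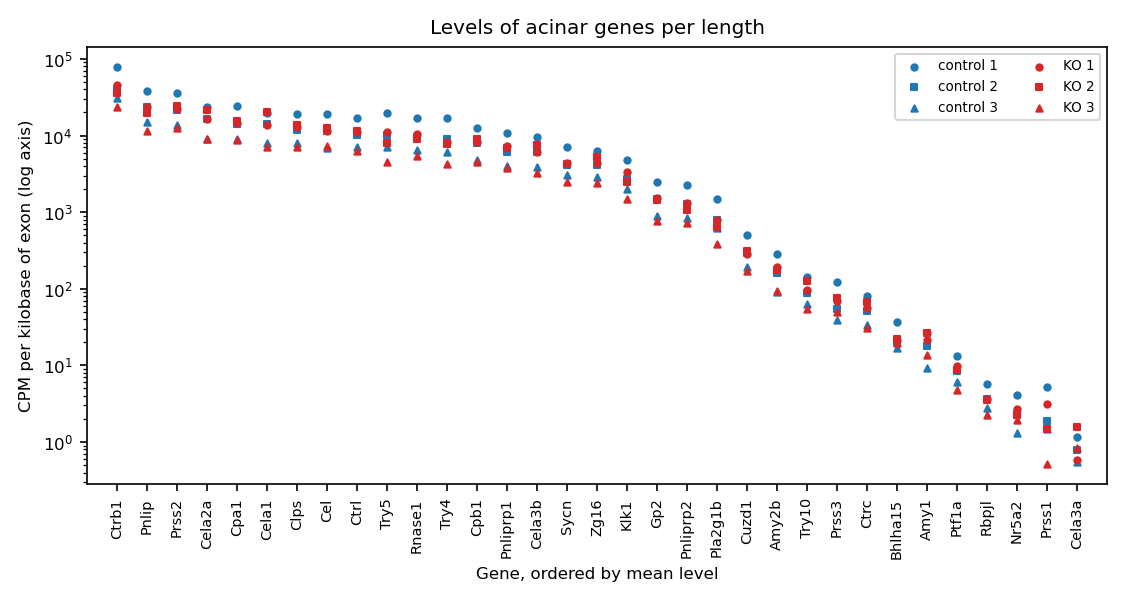
Level of each gene in CPM per kilobase of exon (log axis) in each library, ordered by mean, with controls in blue and KO in red. Ctrb1 leads at a mean of 42487, Cela3a ends the order at 0.915, and the libraries of both groups are mixed at each gene.

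Several of these levels are uncertain because reads could be split between copies. Transcripts of the 6 trypsinogen genes in the set were 88.1% to 97.1% identical to each other, with Try4 and Try5 the closest pair. Cela3a and Cela3b were 94.5% identical. The amylase transcripts Amy2a5 and Amy2a1 were 99.9% identical, so reads of the amylase copies may have been split or left out of the counts, and amylase levels are uncertain. Ctrc and Cela2a each share 305 exon bases with each other or with Casp9 on the opposite strand, which is 21.4% of Ctrc and 17.7% of Cela2a. Amy1 shares 32.7% of its exon bases with Rnpc3, and Ptf1a shares 40.4% with the antisense gene Ptf1aos. Rbpjl shares 2.6% with Matn4 on the opposite strand, and the other 28 genes share none. The sources used here do not give the strand and multiple-mapping settings of the counting.

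All 33 genes passed the filter on low counts, and 0 passed the test between genotypes (edgeR quasi-likelihood test, Benjamini-Hochberg over 14212 genes, adjusted p from 0.722 to 0.999). Over all genes 10 passed, or 0.0704%, and 9 of these (0.0633%) were lower in KO. None of the 33 had an unadjusted p under 0.05, against 7.37% of all genes. Values were negative (lower in KO) for 31 of the 33 with a median log2 fold change of -0.25, while 52.2% of all genes tested were negative with a median of -0.01. In 0 of the 33 did the CPM of the groups not overlap, against 13.9% of all genes. The standard error of these fold changes was 0.38 at the median, compared with 0.15 over all genes. The negative values leaned on 2 libraries. Without control 1, 7 were negative and 26 positive (median 0.18), and without KO 3, 19 were negative and 14 positive (median -0.04).

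**Figure D3:**
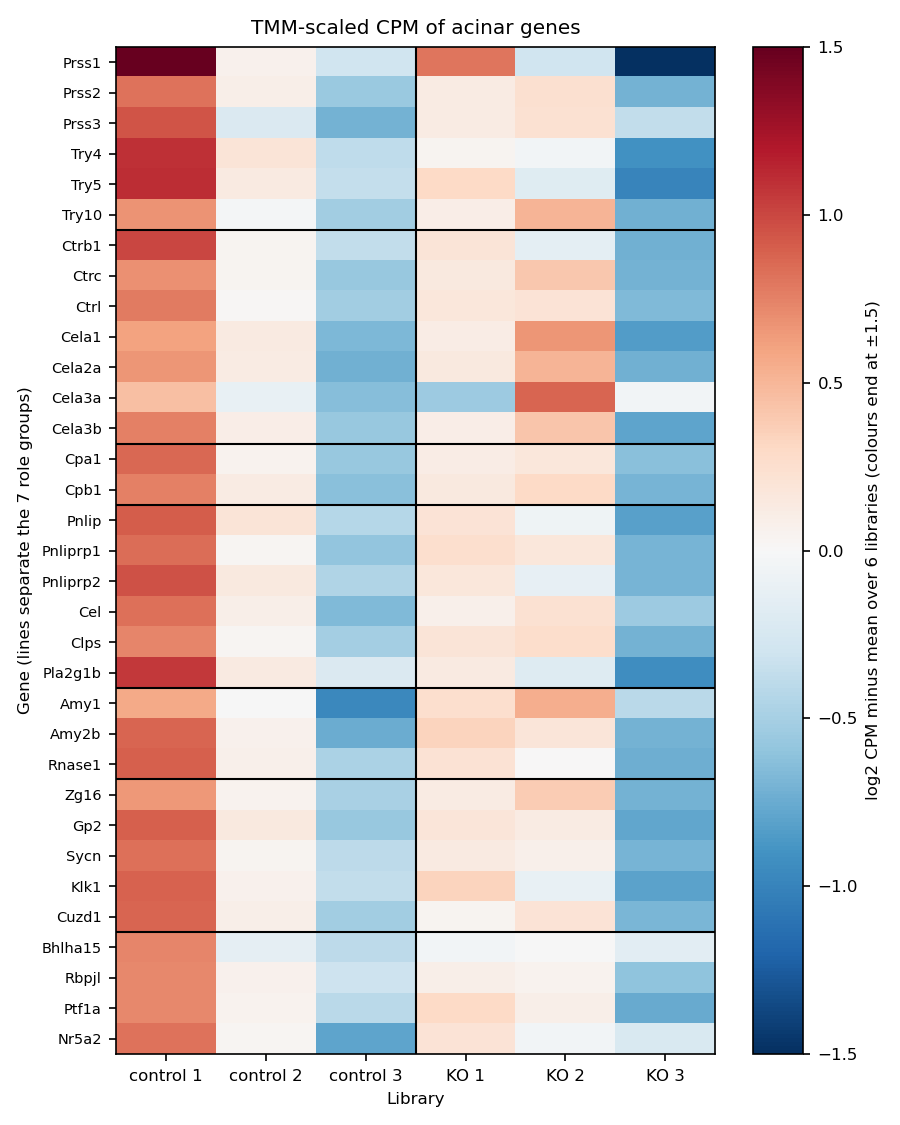
Log2 CPM of each gene in each library, as the difference from its mean over the 6 libraries, with red above and blue below the mean, colours that end at ±1.5, horizontal lines between role groups and a vertical line between controls and KO. Control 1 is the highest library for 31 of the 33 genes and KO 3 the lowest for 26.

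Differences between libraries of 1 group were larger than those between groups. Control 1 was the highest library for 31 of the 33 genes and KO 3 the lowest for 26, where over all genes tested these libraries were highest in 23.3% and lowest in 25.4%. The order control 1, control 2, control 3 held in all 33, and KO 3 was the lowest KO library in 32. Control 1 exceeded control 3 by 2.05-fold to 3.52-fold (median 2.58), and KO 2 exceeded KO 3 by 1.1-fold to 2.84-fold (median 1.83). The ratio of the highest to the lowest library had a median of 2.91 over the 33, against 1.43 over the 13908 tested genes with more than 3 counts in every library. The 33 genes were measured in the same libraries, so they are not independent observations, and the cause of their shared order was not tested.

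The trypsinogens are the precursors of trypsin. All 6 had negative fold changes (median -0.45), and 0 passed. Prss2 had 29261, 17699 and 11311 CPM in controls 1, 2 and 3 and 18171, 19568 and 10130 in KO 1, 2 and 3 (log2 fold change -0.28, SE 0.42, edgeR adjusted p = 0.888). Its control 1 stood above the rest, and the other 5 libraries of the 2 groups interleaved. Try5 had 17691, 9046 and 6405 CPM in controls and 10092, 7264 and 4133 in KO (-0.63, SE 0.44, adjusted p = 0.777). Try4 had 13563, 7252 and 4872 CPM in controls and 6535, 6149 and 3367 in KO (-0.68, SE 0.40, adjusted p = 0.744), so that only control 3 lay among the KO values. Try10 and Prss3 were far less abundant, from 46.7 to 123 and from 32.2 to 101 CPM. Prss1 had 11 to 63 counts in a library and its ratio of highest to lowest library, 9.97, was the largest of the 33.

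Chymotrypsinogens and elastases are proteases that cut at other residues than trypsin. Of the 7 genes, 6 had negative values and 0 passed. Ctrb1 had 69214, 35705 and 26823 CPM in controls and 39708, 31394 and 20979 in KO (log2 fold change -0.52, SE 0.46, edgeR adjusted p = 0.816). Control 1 was again highest and KO 3 lowest, with the others mixed. Cela2a had 40522, 27985 and 15574 CPM in controls and 28326, 36665 and 15522 in KO (-0.06, SE 0.46, adjusted p = 0.980). Cela1 broke the order, since with 44884, 32504 and 18635 CPM in controls and 32015, 47114 and 16595 in KO its highest library was KO 2 (-0.0045, SE 0.48, adjusted p = 0.999). Cela3a was the other gene with its maximum in KO 2, but on 13 to 24 counts in a library, with 1.12, 0.757 and 0.527 CPM in controls and 0.56, 1.5 and 0.798 in KO (0.27, SE 0.45, adjusted p = 0.901). Ctrl, Cela3b and Ctrc had fold changes of -0.23, -0.20 and -0.12.

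Carboxypeptidases trim amino acids from the ends of peptides. Cpa1, which encodes carboxypeptidase A1, had 43074, 24538 and 15985 CPM in controls and 25687, 26785 and 15356 in KO (log2 fold change -0.30, SE 0.43, edgeR adjusted p = 0.885). Cpb1, which encodes carboxypeptidase B1, had 40784, 26282 and 15627 CPM in controls and 26690, 29562 and 14823 in KO (-0.22, SE 0.44, adjusted p = 0.922). Both genes had the same order of libraries, with KO 2 next after control 1 and the groups overlapping.

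The lipases and their cofactors digest fats. All 6 genes had negative values (median -0.37) and 0 passed. Pnlip had 84488, 51562 and 33472 CPM in controls and 51996, 43221 and 25542 in KO (log2 fold change -0.49, SE 0.47, edgeR adjusted p = 0.830). Clps, which encodes the colipase that anchors this lipase on fat droplets, had 11616, 7150 and 4916 CPM in controls and 7982, 8407 and 4287 in KO (-0.20, SE 0.37, adjusted p = 0.918). Colipase thus had a higher value in KO 2 than in KO 1, and the lipase did not. Pla2g1b, the gene of secreted phospholipase A2 of group IB, had 1074, 566 and 442 CPM in controls and 564, 450 and 270 in KO. Its log2 fold change of -0.70 (SE 0.34, adjusted p = 0.722) was the lowest of the 33. It passed in 1 alternative only, the fit without a filter on low counts (adjusted p = 0.000994), in which 1.14% of 26297 genes passed. There its log2 fold change was about the same, -0.69, but its SE was 0.15. Other SEs were also lower in that fit, such as 0.26 for Prss2 (0.42 with the filter), and 8 of the 33 had an unadjusted edgeR p under 0.05. Pnliprp1, Pnliprp2 and Cel had fold changes of -0.25, -0.50 and -0.25.

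Of the amylases and the ribonuclease, 2 of 3 had negative values and 0 passed. Rnase1, the pancreatic ribonuclease gene, had 16744, 9522 and 6507 CPM in controls and 10477, 9073 and 5431 in KO (log2 fold change -0.39, SE 0.39, edgeR adjusted p = 0.835). Amy2b, a pancreatic amylase gene, had 444, 254 and 145 CPM in controls and 306, 276 and 149 in KO (-0.20, SE 0.38, adjusted p = 0.914). Amy1, the amylase gene of salivary gland and liver type, had 92.4, 61.8 and 31.8 CPM in controls and 74.2, 90.7 and 47.1 in KO (0.20, SE 0.35, adjusted p = 0.908). Amy1 and Cela3a were the only 2 of the 33 with positive values. The amylase copies Amy2a2, Amy2a3 and Amy2a4 had at most 1 count in all libraries together, which with reads shared between copies does not show that they were silent.

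Proteins of the zymogen granule package the enzymes or travel with them. All 5 genes had negative values (median -0.36) and 0 passed. Sycn, the gene of the granule membrane protein syncollin, had 3960, 2299 and 1703 CPM in controls and 2454, 2352 and 1382 in KO (log2 fold change -0.36, SE 0.33, edgeR adjusted p = 0.822). Zg16, a lectin of the granule matrix, had 7900, 5198 and 3591 CPM in controls and 5460, 6550 and 3064 in KO (-0.15, SE 0.36, adjusted p = 0.938). Both followed the enzymes, with control 1 highest and KO 3 lowest, but the KO maximum was KO 1 for Sycn and KO 2 for Zg16. Gp2, the major granule membrane glycoprotein gene, the tissue kallikrein gene Klk1 and Cuzd1 had fold changes of -0.38, -0.41 and -0.36.

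The 4 transcription factors were at much lower levels than most of the enzymes. Per kilobase, the mean of Bhlha15 was above that of Amy1 (22.8 against 19.25), and all 4 means were above those of Prss1 and Cela3a. Ptf1a and Rbpjl had the same highest and lowest library as most of the enzymes. Ptf1a had 20.2, 12.7 and 9.22 CPM in controls and 15, 13 and 7.22 in KO (log2 fold change -0.23, SE 0.31, edgeR adjusted p = 0.876). Rbpjl, the pancreatic partner of PTF1A, had 32.5, 20.6 and 15.9 CPM in controls and 21.1, 20.5 and 13.0 in KO (-0.32, SE 0.26, adjusted p = 0.796). Their groups overlapped. Bhlha15, the gene of MIST1, which sets up the secretory apparatus, had 128, 70.1 and 58.6 CPM in controls and 74.5, 76.4 and 69.2 in KO (-0.22, SE 0.24, adjusted p = 0.849). Nr5a2, a nuclear receptor gene, had 23.9, 13.9 and 7.83 CPM in controls and 15.7, 13.2 and 11.6 in KO (-0.13, SE 0.33, adjusted p = 0.941). For Bhlha15 and Nr5a2 the lowest library was control 3, and KO 2 exceeded KO 3 by only 1.1-fold and 1.14-fold, where the enzyme and granule genes had a median of 1.84. As shares of acinar counts both were highest in KO 3, at 0.0379% for Bhlha15 and 0.00637% for Nr5a2. The ratio of highest to lowest library was 2.19 for Bhlha15, the smallest of the 33.

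**Figure D4:**
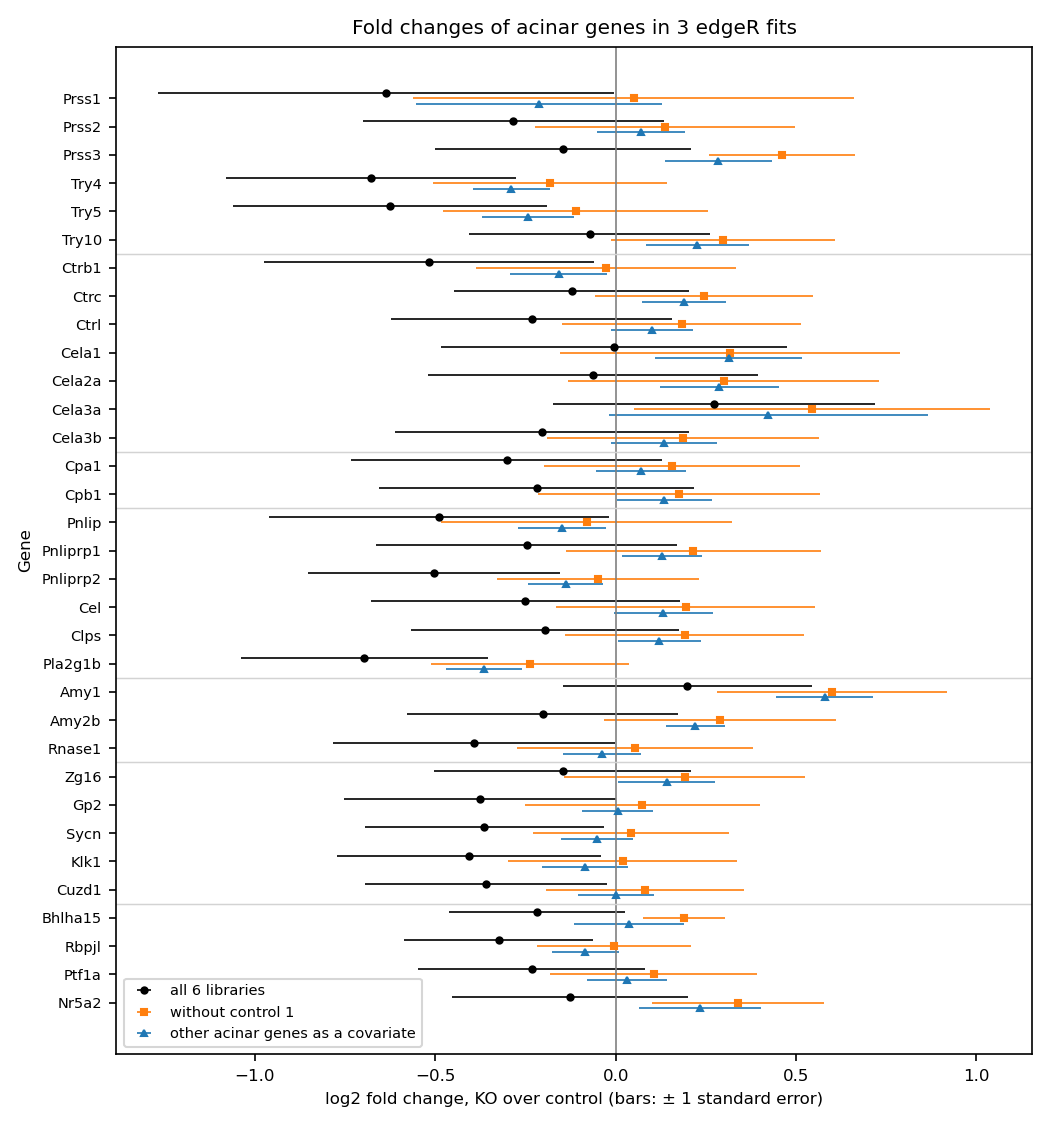
Log2 fold change of each gene, KO over control, with bars of 1 standard error, from the fit on all 6 libraries (black), the fit without control 1 (orange) and the fit with the level of other acinar genes as a covariate (blue). Black points lie below 0 for 31 of the 33 genes, orange points for 7 and blue points for 11, and the blue bars are the shortest for most genes.

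Most of the other acinar genes, a list of 26 that holds none of the 33, had the same pattern of libraries. Of the 23 tested, 19 had negative and 4 positive values (median -0.22), and 0 passed (smallest edgeR adjusted p = 0.742). Control 1 was the highest library for 20 and KO 3 the lowest for 18. Among the highest of them per length were the trypsinogen gene 2210010C04Rik, from 13051 to 34564 CPM, the trypsin inhibitor gene Spink1 (272 to 841 CPM) and the disulfide isomerase gene Pdia2 (591 to 1716 CPM). Their log2 fold changes were -0.16, -0.38 and -0.15. The ratio of highest to lowest library ran from 1.12 to 6.65 over the 23. Itpr3 went the other way, lowest in control 1 (49.9 CPM) and highest in KO 3 (73.6 CPM). Chrm3 was nearly even (35.3 to 39.3 CPM), and Vamp8 was highest in KO 2 (22.9 CPM).

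With the mean log2 CPM of these 23 genes as a covariate, an alternative chosen after seeing the data, fold changes between genotypes were estimated at a given acinar level. The median standard error of the 33 genes was then 0.122, and 22 values were positive and 11 negative, with a median of 0.07. None passed, while 0.303% of all genes did. At an unadjusted p under 0.05 were 4 of the 33, against 6.9% of all genes. These were Amy1 (log2 fold change 0.58, SE 0.13, edgeR adjusted p = 0.241), Amy2b (0.22, SE 0.08, adjusted p = 0.629), Pla2g1b (-0.36, SE 0.11, adjusted p = 0.447) and Try4 (-0.29, SE 0.11, adjusted p = 0.629).

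The makeup of the acinar counts varied much less between libraries than their amount. As a share of the counts of the 33 genes, each gene's value differed from library to library with a median SD of 0.146 on the log2 scale, compared with 0.572 for CPM. The ratio of highest to lowest library was under 1.5 for 24 of the 33. Prss2 was the most even, at 5.41%, 5.43% and 5.39% of acinar counts in controls and 5.36%, 5.58% and 5.55% in KO. Shares add up to a whole, so a higher share of 1 gene lowers the others.

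KO 2 departed most from the common makeup, with an SD of 0.229 over the log2 deviations of the 31 genes that had more than 100 counts in every library, where the other libraries had 0.0846 to 0.183. It was richer in elastases and poorer in several other enzymes. Cela1 took 13.4% of its acinar counts against 8.30% to 9.97% in the other 5 libraries, and Cela2a took 10.45% against 7.425% to 8.582%. Ctrb1 took 8.945% against 10.95% to 12.8%, and Pnlip 12.3% against 13.99% to 15.96%. There were 1.09 counts of Cela1 for each count of Pnlip in KO 2 and 0.531 to 0.65 in the others. KO 2 also had the lowest fibroblast and endothelial sums, given above. Its share of ribosomal RNA was 12.64%, below the 18.47% of KO 3. The part of these in the makeup of KO 2 was not tested.

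In 7 of the 33 genes (21.2%) the shares of the 2 groups did not overlap, where 2 of the 23 other acinar genes (8.7%) and 0.964% of all genes, taken per acinar count, did not. Most of all genes are not acinar, so their values per acinar count vary with the amount of acinar RNA. Lower in KO were Try4, Pnlip, Pnliprp2 and Pla2g1b, and higher were Ctrc, Clps and Amy1, of which Clps overlapped once trypsinogens were left out of the total. Some of these groups nearly touched. For Clps, control 3 had 2.344% and KO 3 2.349%, and for Ctrc, control 3 had 0.02311% and KO 1 0.02332%. For Pnliprp2, control 2 had 0.6227% and KO 3 0.6198%, and for Pnlip, control 1 had 15.63% and KO 1 15.33%. In Clps, Ctrc, Pnliprp2 and Pnlip, KO 2 lay farthest from the controls. Try4 made up 2.51%, 2.22% and 2.32% of acinar counts in controls and 1.93%, 1.75% and 1.84% in KO. Its counts per count of Prss2, on the same chromosome, were 0.464, 0.41 and 0.431 in controls and 0.36, 0.314 and 0.332 in KO. Pla2g1b made up 0.199%, 0.174% and 0.211% in controls and 0.166%, 0.128% and 0.148% in KO. For Amy1 the shares were 0.0171%, 0.0189% and 0.0151% in controls and 0.0219%, 0.0258% and 0.0258% in KO. Each of the 7 had an exact two-sided permutation p of 0.1, the smallest that 3 against 3 libraries can give, among 33 shares compared, so no difference in makeup was called.

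**Figure D5:**
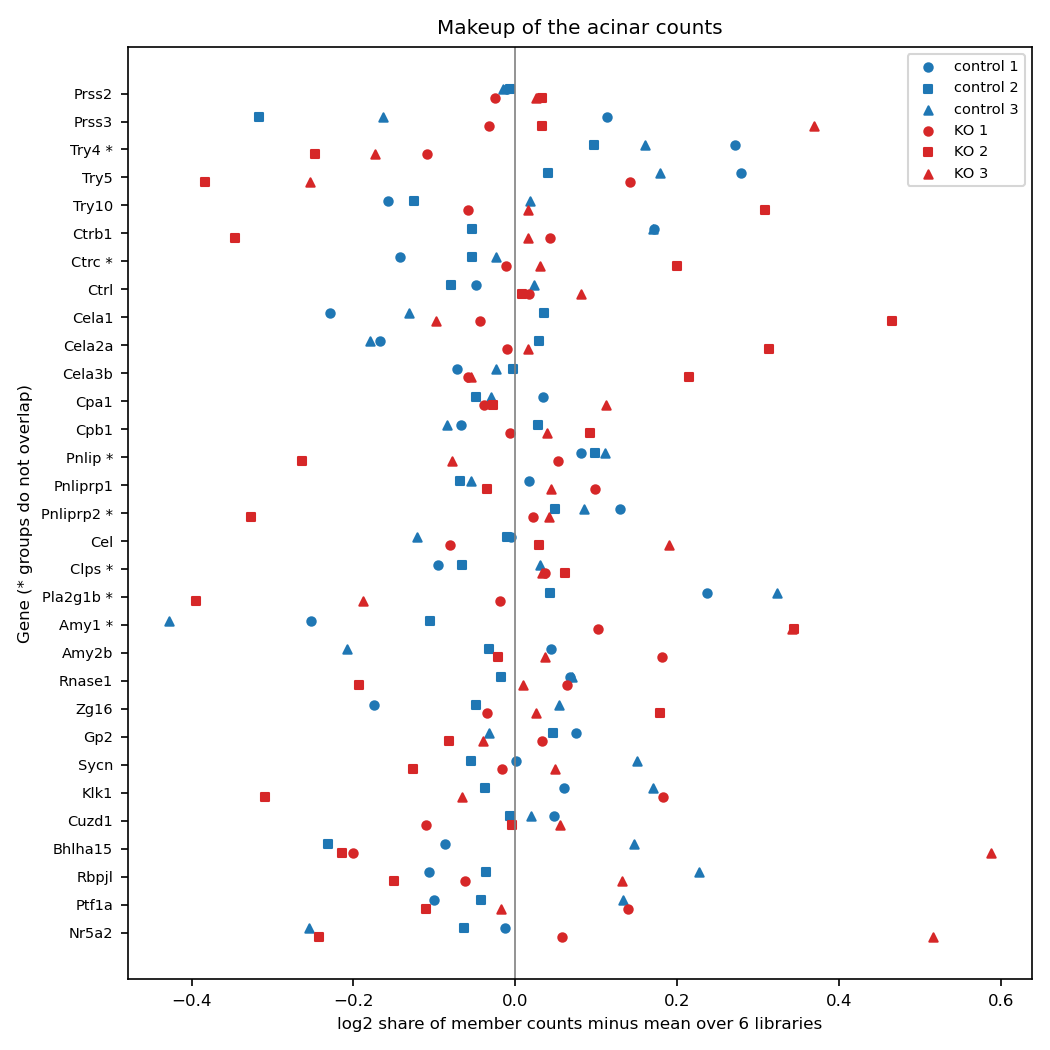
Share of each gene in the acinar counts of a library, as log2 difference from its mean over the 6 libraries, for the 31 genes with more than 100 counts in every library, with controls in blue, KO in red and an asterisk where the groups do not overlap. Most points lie near 0, and KO 2 (red squares) lies farthest right for Cela1 and Cela2a and farthest left for Ctrb1 and Pnlip.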

How the data were processed

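The authors deposited raw read counts per gene for 6 libraries, and the table gives exon coordinates and lengths, per the file headers. Per the labels' protocols the libraries were made with an mRNA kit, and per the submitters' processing notes STAR 2.7.9, featureCounts 2.0.0 and the builds GRCm38.p6 and mm10 were used. Of 55401 identifiers, a symbol was found for 55141, in 54349 cases with the version matching. Gene positions came from GENCODE vM21 and promoter windows from RefSeq.

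Genotypes were compared in R 4.3.3 by the quasi-likelihood test of edgeR 4.0.16 after TMM scaling, in a model holding genotype alone. The filter on low counts was filterByExpr (minimum count 10, minimum total 15), and p-values were adjusted over all 14212 genes with a threshold of 0.05. Shares of counts were compared by exact permutation tests. Members and lists were chosen with earlier results of these data known. Values in every library are given for the 2 genes of each role group with the highest level, the transcription factors, genes called in any fit, the 4 genes with fold changes farthest from the median, and Cela1, taken for its library order after its values were seen. Of the other acinar genes, 1 of the 4 with the highest level is not reported here. Alternatives were RLE normalization, no filter, a replicate block, each library left out, library sizes without the 33 genes, DESeq2 1.42.0 and limma-voom (limma 3.58.1), with the acinar covariate added after seeing the data (pseudocount 0.5). On counts simulated for this comparison (14209 genes tested, 200 changed, biological variation alone and none of the acinar spread) 95% of changes of 1 on the log2 scale were recovered and 4.41% of calls were false. Transcripts were aligned with Biopython 1.88, and no pair of libraries was a duplicate (the lowest chi-square divided by its degrees of freedom was 14.5).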

Additional observations from a re-analysis of the deposited data

How the results depend on the processing

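None of the 33 genes was called in any alternative except Pla2g1b without the filter on low counts (1 gene called). The number of genes called in the whole table, 10, became 300 without the filter, 36 with the replicate block, 48 with DESeq2, 6 with limma-voom, 43 with the acinar covariate and 2 to 6 when single libraries were dropped and fewer samples entered, an arm then holding 2. It was 10 with RLE normalization and with library sizes without the 33 genes, and both left 31 of the 33 negative. The number of negative values was 31 with DESeq2 and 29 with limma-voom, 11 with the acinar covariate, and 7 to 33 with a library left out (7 without control 1, 19 without KO 3). The median log2 fold change was -0.53 to 0.18 when single libraries were dropped and -0.19 with the replicate block. The summed share of counts in KO minus control, -6.55 percentage points, was -11.4 to -1.52 when single libraries were dropped. It kept its direction with both other denominators, but was smaller, at -4.499 percentage points, without ribosomal RNA and mitochondrial genes in the total. The genes whose shares of acinar counts did not overlap between groups numbered 7 to 15 with a library left out, which by construction cannot lower the number, and 6 without the trypsinogens in the total, where Clps overlapped. Of the 33 log2 fold changes, 24 changed sign without control 1, 12 without KO 3 and 26 with at least 1 of the 6 libraries left out. Among the 21 genes described with values in every library, those that did so ranged as follows: Prss2 -0.56 to 0.14, Cela2a -0.36 to 0.30, Cela1 -0.40 to 0.32, Cela3a -0.14 to 0.55, Cpa1 -0.58 to 0.16, Cpb1 -0.50 to 0.18, Clps -0.44 to 0.19, Rnase1 -0.66 to 0.054, Amy2b -0.52 to 0.29, Amy1 -0.13 to 0.60, Sycn -0.60 to 0.043, Zg16 -0.39 to 0.19, Bhlha15 -0.43 to 0.19, Ptf1a -0.48 to 0.11, Nr5a2 -0.47 to 0.34. With the acinar covariate 20 of the 33 changed sign, of these 21 genes Prss2 0.070, Cela2a 0.29, Cela1 0.31, Cpa1 0.071, Cpb1 0.14, Clps 0.12, Amy2b 0.22, Zg16 0.14, Bhlha15 0.037, Ptf1a 0.031, Nr5a2 0.23. With limma-voom 2 did, Nr5a2 at 0.10 and Prss3 at 0.0023. The cause was not tested. Between libraries of the same number, deviations had correlations of 0.197, -0.188 and 0.16, and between those of other numbers from -0.269 to 0.181. The labels do not say that the numbers pair the mice, so they are not taken as pairs. With the replicate block 0 of the 33 were called, 7 had an unadjusted edgeR p under 0.05 and the smallest adjusted p was 0.136. Standard errors were lower there, such as 0.23 for Prss2 and 0.14 for Pla2g1b, against 0.42 and 0.34 in the main fit. With 3 libraries a group, the median standard error of the 33 genes was 0.38, and 0.122 with the acinar covariate.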

Other observations

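Of the 9 duct markers, 2 followed the acinar order of libraries. Tff2, the gene of a secreted trefoil peptide, had 1077, 678 and 488 CPM in controls 1, 2 and 3 and 745, 815 and 375 in KO 1, 2 and 3 (log2 fold change -0.21, SE 0.33, edgeR adjusted p = 0.896). Muc1, a membrane mucin gene, had 104, 49.5 and 43.1 CPM in controls and 64.0, 43.9 and 40.4 in KO (-0.39, SE 0.31, adjusted p = 0.794). In contrast the duct keratin gene Krt7 had 79.1, 83.2 and 91.3 CPM in controls and 80.1, 88.3 and 78.0 in KO. Tff2, Muc1 and Krt7 were singled out after their values were seen. Tff2 made up most of the summed duct level, so that sum moved with the acinar genes.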
